A study of Homo sapiens with 6 samples.

Results

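The 45 genes described here act in mitosis: they encode the cyclins, kinases, checkpoint proteins, kinetochore subunits, kinesins and midzone proteins that carry a cell from late G2 phase through division. They were taken by symbol from a list, and all 45 were found among the 56638 gene symbols counted. RNA came from HCT116, a long-established line of colorectal cancer cells, and was sequenced as 3 libraries of control cells and 3 whose labels read ZFP90 KO (knockout). The knockout was made with guide RNAs against exon 3 of ZFP90, a zinc-finger gene of the KRAB family. All cells were at passage 16 to 19 in RPMI-1640 medium with fetal bovine serum. The labels give no other allele or agent, do not say what the control cells received, and do not say whether the lines are clones or whether replicates were separate cultures. A p-value below is therefore set against variation among the 6 libraries, and that variation may be technical.

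Mitotic genes are switched on together late in the cell cycle. In G0 and early G1 the DREAM complex, built on the MuvB core, holds many of them silent through a promoter element called the cell cycle genes homology region (CHR). Later the MuvB core binds B-MYB and FOXM1 at the same element and the genes are transcribed, often with the help of NF-Y at CCAAT boxes. Many of these transcripts peak in G2 and M phase, so in a culture their level reflects in part how many cells are in those phases.

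The libraries held from 13424356 to 17012910 reads assigned to genes, and each of the 45 genes had between 80 and 5084 reads in every library. ZFP90 RNA itself was higher in the libraries labelled knockout (45.99 ± 2.53 CPM in controls, 85.7 ± 4.75 CPM in libraries labelled knockout, SD, n = 3 each; edgeR adjusted p = 5.1e-05), so directions are given for the libraries as labelled. CPM, used throughout, is a gene's read count relative to the library's total after TMM scaling. Of 12 epithelial markers of the colon, 8 passed the count filter. Their summed level ran from 2991 to 3070.2 CPM in controls and from 2938 to 3063 CPM where labelled knockout, with KRT8 the largest term (1291 to 1333 and 1345 to 1442 CPM, groups separate, not called). KRT18 was called lower (196, 226 and 208 CPM against 191, 169.9 and 174 CPM; log2 fold change -0.23, SE 0.068, adjusted p = 0.0394), and none of the other 7 tested was called. CDX1 and TFF3 had 0 reads in all libraries. VIL1 and LGALS4 did not pass the filter either, with at most 2 and 4 reads in any library. Of 10 leukocyte markers none passed the count filter (sums from 0.856 to 1.34 and from 0.78 to 1.09 CPM), and CD3D, CD3E and MS4A1 had 0 reads. Of 10 fibroblast and endothelial markers 6 passed and none was called. Their sum (76.2 to 96.98 and 76.4 to 98.3 CPM) was mostly COL1A1 alone (66.6 to 84.7 and 66.8 to 82.9 CPM). DCN, LUM, PDGFRA, PDGFRB, VWF and CDH5 were each under 1 CPM in every library and PECAM1 had 0 reads. Control replicate 2 differed from the other controls: it stood at 87.4%, 80.3%, 75.0%, 69.6% and 52.8% of their mean on chromosomes 6, 7, 8, 9 and X, by the median gene. It stood at 51.7% and 53.3% on Y and the mitochondrial genome, and at 103% over the other chromosomes. Only TTK on chromosome 6, ANLN on chromosome 7 and KIF4A on chromosome X belong to the 45 genes and lie there. The other 42 lie elsewhere.

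The CHR is shown first because it is a feature many of the genes share and the choice by name did not use. RefSeq start sites (GRCh38.p14) were found for 36 of the 45 genes, 5 of them with more than 1 start, and 300 bases were searched, from 250 before to 50 after each start. The CHR was searched as TTTGAA and TTCGAA, and the NF-Y box as CCAAT, both on both strands. Where TTGG follows a CHR, the reversed CCAAT shares its first base with it. A CHR match was found for 30 of the 36 genes (83.3%), against 15.3% of the 10130 tested genes with a start site and 19.5% of all 27305 genes in the table. CCAAT was found for 29 of the 36 (80.6%), against 43.2% of tested genes, and both for 25 (69.4%), against 6.42%. Of the 30 genes with a CHR match, 26 had one that began within 40 bases of a start. The sequences below are 30 bases each, 5′ to 3′ in the direction of the gene, with the CHR, and any CCAAT in the window, in capitals. Each is a match on the gene's strand that begins within 100 bases before a start, which 17 genes had. Shown are all 8 of these genes that rose, with CDK1 and HMMR, which did not.
CDC25B, chr20:3796260-3796289, plus strand: ctgctgttatttTTCGAAtatataaggagg
CDCA8, chr1:37692481-37692510, plus strand: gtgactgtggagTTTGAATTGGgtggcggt
INCENP, chr11:62123989-62124018, plus strand: tgagccttcagtTTTGAAaatcatagtttt
KIF4A, chrX:70290058-70290087, plus strand: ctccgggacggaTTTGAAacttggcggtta
KIF23, chr15:69414282-69414311, plus strand: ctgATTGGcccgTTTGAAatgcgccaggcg
PRC1, chr15:90994538-90994567, minus strand: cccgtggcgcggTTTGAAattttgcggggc
MKI67, chr10:128126435-128126464, minus strand: tcttcgttttcgTTTGAATTGGgcgggcgc
BUB1B, chr15:40161034-40161063, plus strand: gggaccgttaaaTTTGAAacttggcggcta
CDK1, chr10:60778453-60778482, plus strand: tagcgcggtgagTTTGAAactgctcgcact
HMMR, chr5:163460598-163460627, plus strand: gggagaTTTGAATTTGAAaccggtagggag
The CHR was found for 84.2% of the 19 genes with a start that rose and for 81.2% of the 16 that were not called. Among these windows CDC25B alone holds TTCGAA. The windows of CDK1 and HMMR hold TTTGAA, as do those of the other 7 genes shown that rose, and HMMR holds it as a pair. No CHR was matched for 6 genes, of which CCNB1, AURKB and KIF2C rose and CCNA2, CENPE and KIF20A were not called. A match by letters is not a bound site.

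**Figure D1:**
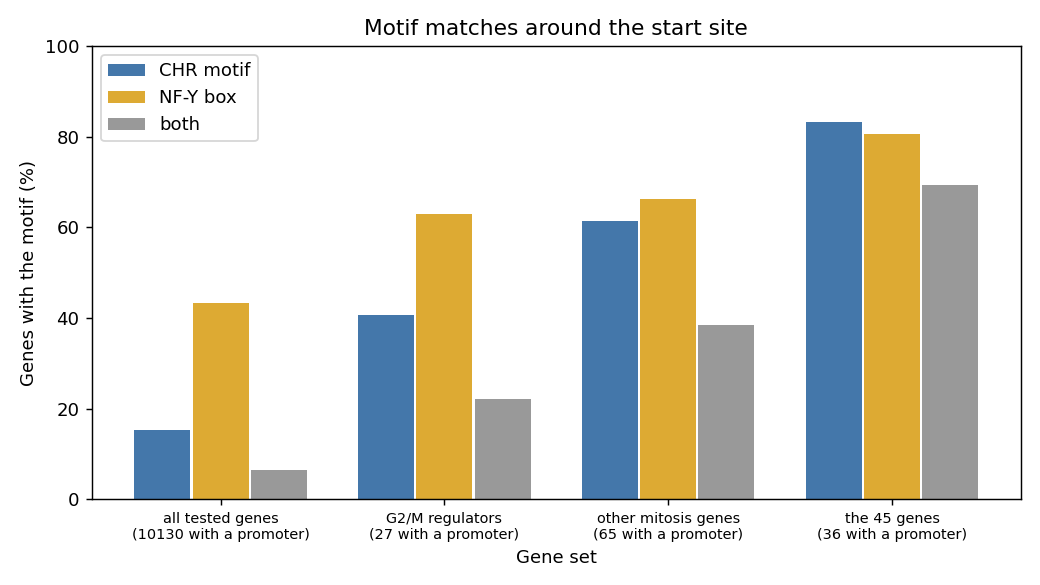
Percentage of genes (y axis) with a CHR match, a CCAAT match (NF-Y box) or both in the 300 bases around a RefSeq start, for all tested genes, the lists of G2/M regulators and other mitosis genes, and the 45 genes (x axis, with the number of genes that have a start in the table). Of the 45 genes, the 36 with a start reach 83.3% for the CHR, against 15.3% of the 10130 tested genes with a start.

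Of the 45 genes, 24 rose and 1 fell in the libraries labelled knockout (edgeR quasi-likelihood test, adjusted p under 0.05 over 16369 genes tested). That is 53.3% higher and 2.22% lower, where 9.73% of all tested genes were called higher and 11.4% lower. All 45 passed the count filter. The median log2 fold change was 0.42, against 0.01 over all tested genes. For 28 of the 45 genes every library labelled knockout lay above every control (62.2%, against 20.9% of all tested genes) and for 2 every one lay below (20.3% of all tested genes). For the other 15 the groups overlapped. Of all calls, 46.1% were higher with TMM and 29.6% with library size alone. In a bulk culture, more cells in G2 and M phase and more of these RNAs per cell cannot be told apart.

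The 45 genes held 0.185%, 0.238% and 0.177% of reads in genes in controls 1, 2 and 3, against 0.238%, 0.26% and 0.239% where labelled knockout. By this share, which is not TMM-scaled, control replicate 2 was level with replicates 1 and 3 labelled knockout, and the other controls were lower. The TMM factor of control replicate 2 was 1.07, against 0.975, 0.977 and 0.98 where labelled knockout. Scaling therefore lowers control replicate 2 relative to those libraries. Each gene's log2 CPM was taken relative to its own mean over the 6 libraries. The mean of these over the 45 genes was -0.29, 0.06 and -0.38 in controls 1, 2 and 3, against 0.15, 0.32 and 0.14 where labelled knockout. On this measure control replicate 2 lay between the other controls and the 3 libraries labelled knockout. It was the highest control for 42 of the 45 genes (93.3%), where it was the highest for 38.2% of all tested genes. By the median gene it stood at 135% of the mean of the other controls for the 45 genes, and at 99.9% for all tested genes. Its value lay inside the range of the libraries labelled knockout for 12 genes, above that range for 5 and below it for 28. Inside or above that range were thus 17 of the 45 genes, where 10041 of the 16369 tested genes were. Replicate 2 labelled knockout was the highest of its group for 40 of the 45 genes. How often this held over all tested genes was not counted. The median coefficient of variation was 19.2% among controls and 7.72% among libraries labelled knockout.

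**Figure D2:**
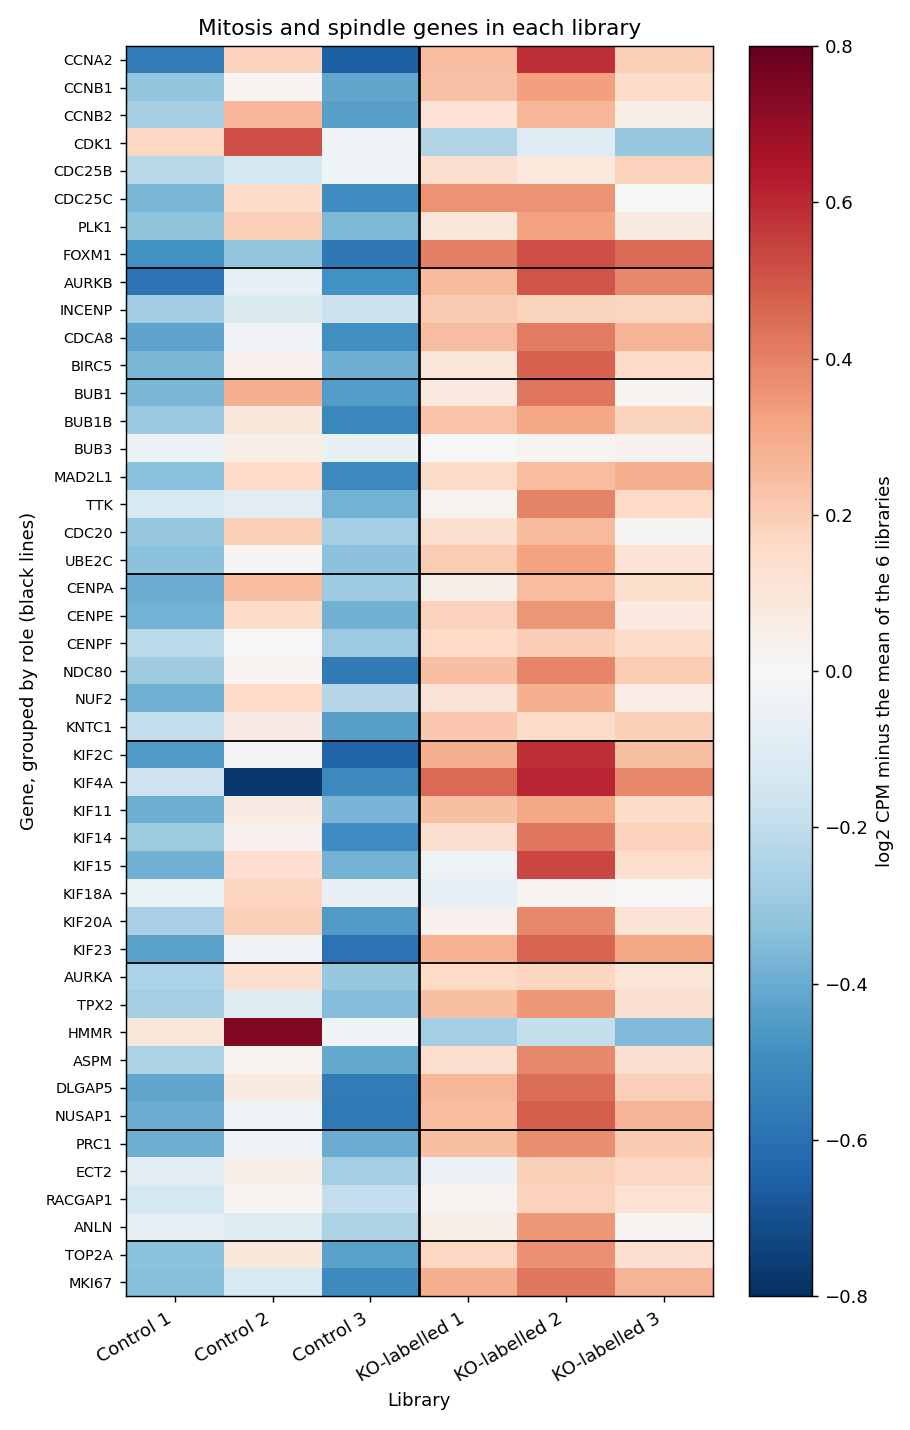
Each row is 1 of the 45 genes, grouped by role between black lines, and each column 1 library. Color gives log2 CPM minus the gene's mean over the 6 libraries. Control 1 and 3 are low in nearly every row, and Control 2 is pale in most and low for KIF4A. For CDK1 and HMMR the libraries labelled knockout are low, Control 2 is high, and Control 1 and 3 are near the mean.

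How many of the 45 genes passed the test depended on each library. Without control replicate 2, 41 were higher and 2 lower, where 13.5% and 14.1% of the 16693 genes then tested were called. Without control replicate 1 the counts were 11 and 0, where 5.63% of all tested genes were called higher and 7.44% lower. Without control replicate 3 they were 15 and 2, where 7.03% and 8.41% were called. Without replicate 1 labelled knockout 11 were higher and 0 lower (4.55% and 6.17% of all tested genes). Replicate 2 labelled knockout left out, 12 were higher and 0 lower (6.51% and 8.40%). Replicate 3 labelled knockout left out, 13 were higher and 0 lower (4.79% and 6.79%). In each of these fits the share of the 45 genes called higher was above that of all genes. Scaling by library size alone gave 15 higher and 2 lower, where 6.02% and 14.3% of all tested genes were called. Leaving out all genes of chromosomes 6 to 9, X, Y and the mitochondrial genome gave 32 higher and 2 lower of the 42 that remained, where 14.5% and 15.4% of all genes left were called. The genes FOXM1, AURKB, INCENP, CDCA8, KIF2C, KIF4A, KIF23, TPX2, NUSAP1, PRC1 and MKI67, 11 in all, were called higher in each of the 14 alternative fits made for single genes, the 6 fits with 1 library left out among them. The other 14 called genes, CDK1 included, lost the call in at least 1 of these fits. All 25 kept it without control replicate 2. That library was the highest control for 42 of the 45 genes, so leaving it out raises most fold changes and narrows the controls. Calls gained that way are no separate support. Of the 20 genes not called with all libraries, all but HMMR, BUB3 and KIF18A were called in that fit alone of the 6.

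**Figure D3:**
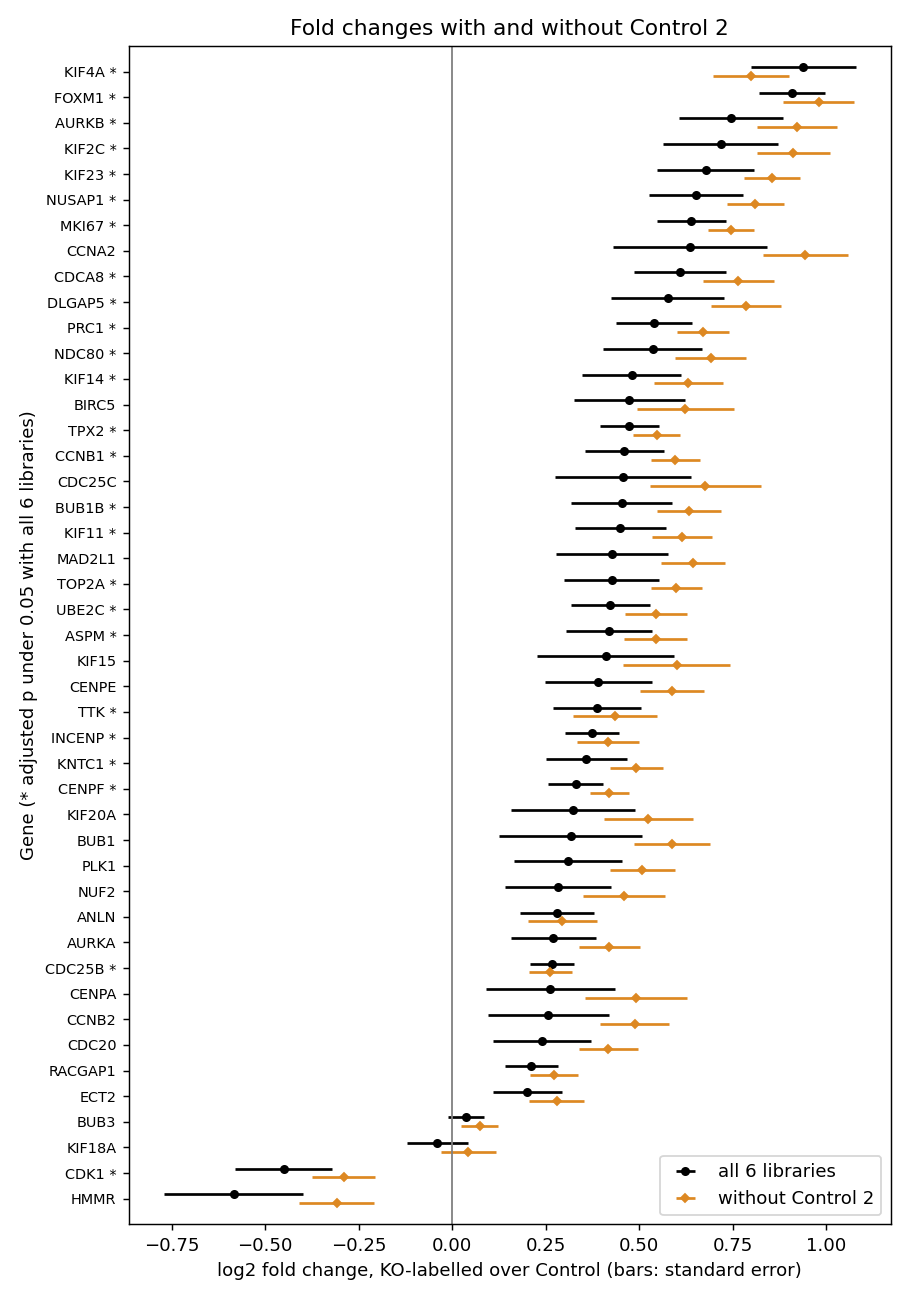
Log2 fold change of the libraries labelled knockout over control (x axis, bars are standard errors) for each of the 45 genes (y axis), with all 6 libraries (black circles) and without Control 2 (orange diamonds). Stars mark an adjusted p under 0.05 with all libraries. Most values move up without Control 2, and KIF4A moves down, from 0.94 to 0.80.

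Entry into mitosis is driven by CDK1 with cyclins A and B, which the CDC25 phosphatases activate, PLK1 reinforces and FOXM1 supplies by transcription. Of these 8 genes 3 rose, 1 fell and 4 were not called. FOXM1, the transcription factor of the G2/M genes, measured 12.9, 14.5 and 12.2 CPM in controls 1, 2 and 3, against 23.9, 25.8 and 24.7 CPM where labelled knockout (log2 fold change 0.91, SE 0.089, adjusted p = 0.000256). It lies on chromosome 12 from 2857681 to 2877155, minus strand (GRCh38, GENCODE release 29, as are all gene positions below). The 3 controls stayed within a narrow band, control replicate 2 included, and every library labelled knockout lay above them. Cyclin B1 (CCNB1), the main mitotic partner of CDK1, measured 53.3, 66.8 and 49.4 CPM against 77.6, 82.8 and 73.1 CPM (log2 fold change 0.46, SE 0.11, adjusted p = 0.0165). The phosphatase CDC25B, which starts CDK1 activation, measured 239, 253 and 273 CPM against 307, 296 and 318 CPM (log2 fold change 0.27, SE 0.059, adjusted p = 0.0141). The groups were separate for both genes, with control replicate 2 the highest control for CCNB1 and the middle one for CDC25B. The calls of CCNB1 and CDC25B were lost with some libraries left out, where adjusted p reached 0.0654 and 0.0641.

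CDK1, the kinase itself, fell. It measured 36.6, 46.7 and 32.03 CPM in controls 1, 2 and 3, against 27.7, 30.4 and 26.4 CPM where labelled knockout (log2 fold change -0.45, SE 0.13, adjusted p = 0.0395). CDK1 lies on chromosome 10 from 60778331 to 60794852, plus strand. Every library labelled knockout was below every control, and control replicate 2 was the highest of all. With control replicate 2 left out, the log2 fold change was -0.29 (edgeR adjusted p = 0.0148). The call was lost without control replicate 1 or without any 1 library labelled knockout (adjusted p up to 0.139).

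A ratio of reads within a library needs no scaling between libraries, and the ratios here were chosen after the values were seen, so they are given without a test. CCNB1 reads per CDK1 read were 1.46, 1.43 and 1.54 in controls 1, 2 and 3, against 2.81, 2.72 and 2.76 where labelled knockout. Control replicate 2, which had high CPM for both genes, sat with the other controls here. The mean went from 1.48 ± 0.058 to 2.76 ± 0.042 CCNB1 reads per CDK1 read (SD, n = 3 each). For cyclin A2 the ratios were 0.413, 0.539 and 0.441 in controls 1, 2 and 3, against 0.95, 1.09 and 0.958 where labelled knockout. For cyclin B2 they were 0.558, 0.63 and 0.566 in controls 1, 2 and 3, against 0.959, 0.97 and 0.963 where labelled knockout. In all 3 ratios the groups were separate, and the spread within each group was small beside the distance between them. For CCNB1 and CCNA2 the separation follows from the CPM and adds nothing to it. Their CPM lay above every control in every library labelled knockout, and that of CDK1 lay below. Only CCNB2 had CPM that overlapped between the groups.

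**Figure D4:**
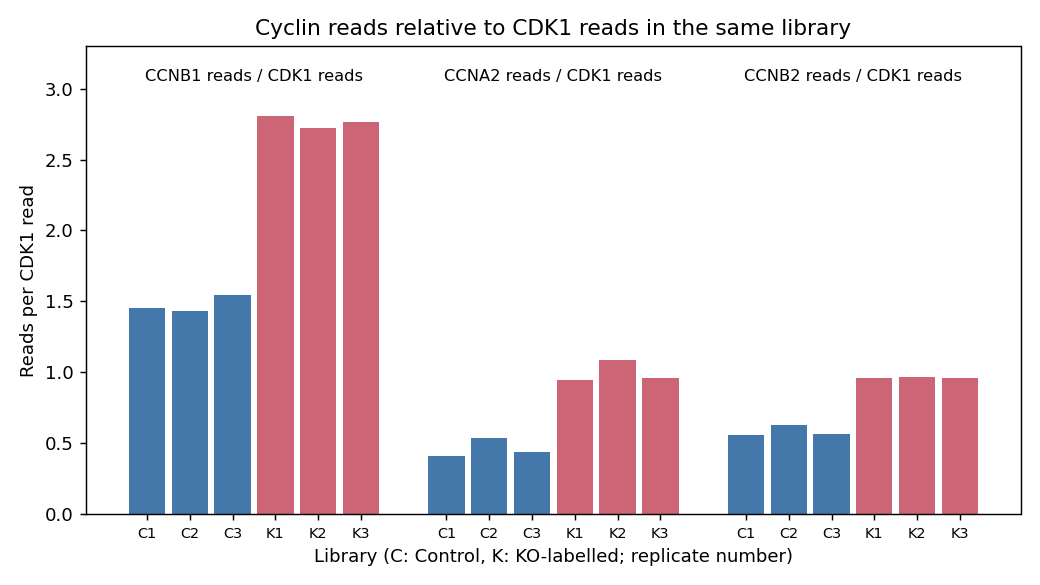
Reads of CCNB1, CCNA2 and CCNB2 per CDK1 read (y axis) in each library (x axis, C for Control in blue, K for libraries labelled knockout in red, with the replicate number). The 3 controls lie between 1.43 and 1.54 for CCNB1 and the libraries labelled knockout between 2.72 and 2.81.

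Cyclin A2 (CCNA2), which works from S phase to prometaphase, was not called although its groups were separate. Its log2 fold change was 0.64 (adjusted p = 0.0588), and control replicate 2 stood at 172% of the other controls. Cyclin B2 (CCNB2), the phosphatase CDC25C and the kinase PLK1 had log2 fold changes of 0.26, 0.46 and 0.31 (adjusted p = 0.291, 0.109 and 0.165), and for each of these control replicate 2 lay within the range of the libraries labelled knockout. Without control replicate 2 the values of CCNA2, CCNB2, CDC25C and PLK1 were 0.94, 0.49, 0.68 and 0.51, and all were called.

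The chromosomal passenger complex joins the kinase Aurora B (AURKB) to INCENP, borealin (CDCA8) and survivin (BIRC5), and corrects wrong attachments of chromosomes to the spindle. Of its 4 genes 3 rose and 0 fell. AURKB measured 10.7, 15.5 and 11.6 CPM against 19.3, 22.98 and 21.1 CPM in controls and libraries labelled knockout (log2 fold change 0.75, SE 0.14, adjusted p = 0.00676), and lies on chromosome 17 from 8204733 to 8210600, minus strand. CDCA8 measured 15.4, 20.2 and 14.6 CPM against 24.4, 27.4 and 24.9 CPM (log2 fold change 0.61, SE 0.12, adjusted p = 0.00955), on chromosome 1 from 37692418 to 37709719, plus strand. INCENP, the scaffold of the complex, measured 20.0, 22.4 and 21.5 CPM against 28.03, 27.4 and 27.4 CPM (log2 fold change 0.37, SE 0.073, adjusted p = 0.00805), on chromosome 11 from 62123973 to 62153163, plus strand. In all 3 genes the libraries labelled knockout lay above all controls, and for INCENP their coefficient of variation was 1.33%. BIRC5 had separate groups too but was not called (log2 fold change 0.47, adjusted p = 0.0528). It was called without control replicate 2, at 0.62.

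The spindle checkpoint holds the anaphase-promoting complex back until every kinetochore is attached. BUB1, BUB1B (BubR1), BUB3, MAD2L1 and the kinase TTK (MPS1) build the signal, CDC20 is the activator it blocks, and UBE2C is the ubiquitin-conjugating enzyme that works once it is lifted. Of these 7 genes 3 rose and 0 fell. BUB1B measured 24.6, 32.2 and 21.1 CPM against 35.3, 37.4 and 34.2 CPM (log2 fold change 0.45, SE 0.13, adjusted p = 0.0432). UBE2C measured 22.96, 29.02 and 22.99 CPM against 33.2, 36.1 and 31.3 CPM (log2 fold change 0.42, SE 0.11, adjusted p = 0.0229). TTK measured 18.3, 18.8 and 15.3 CPM against 20.3, 26.2 and 22.3 CPM (log2 fold change 0.39, SE 0.12, adjusted p = 0.0478). The groups were separate for all 3. For TTK, on chromosome 6, control replicate 2 stood at 112% of the other controls, against a median of 136% for the 42 genes off the chromosomes where it was low. The calls of BUB1B and TTK held in 1 of the 6 fits with a library left out, the one without control replicate 2. That of UBE2C held in 2 of the 6. In these fits adjusted p reached 0.127 for BUB1B, 0.084 for UBE2C and 0.145 for TTK.

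BUB1, MAD2L1 and CDC20 were not called, with log2 fold changes of 0.32, 0.43 and 0.24 (adjusted p = 0.272, 0.0754 and 0.226). Control replicate 2 stood at 162%, 149% and 139% of the other controls for them, and without it they were called at 0.59, 0.64 and 0.42. BUB3, which also serves outside mitosis, hardly varied: it measured 189, 202 and 188 CPM against 195, 198 and 200.3 CPM (log2 fold change 0.04, SE 0.048, adjusted p = 0.623). Its sign turned with scaling by library size alone, where it was -0.031.

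At the centromere, CENPA is the histone H3 variant that marks the site, the NDC80 complex (NDC80, NUF2) grips microtubules, CENPE is a kinesin that moves chromosomes to the plate, CENPF is a large kinetochore protein and KNTC1 (ROD) recruits dynein and checkpoint proteins. Of these 6 genes 3 rose and 0 fell. NDC80 measured 21.1, 25.99 and 17.4 CPM against 30.4, 33.8 and 29.6 CPM (log2 fold change 0.54, SE 0.13, adjusted p = 0.0215). CENPF measured 94.0, 109.5 and 89.6 CPM against 122, 126 and 121 CPM (log2 fold change 0.33, SE 0.074, adjusted p = 0.0148). KNTC1 measured 47.3, 56.7 and 40.2 CPM against 62.95, 60.3 and 61.9 CPM (log2 fold change 0.36, SE 0.11, adjusted p = 0.0454). The groups were separate for these 3 genes, and replicate 1 labelled knockout was the highest for KNTC1 alone of the 3. With 1 library left out, adjusted p reached 0.079, 0.0614 and 0.144. The calls of NDC80 and CENPF held in 2 of these 6 fits each, and that of KNTC1 only without control replicate 2. NUF2, the direct partner of NDC80, had a log2 fold change of 0.28 (adjusted p = 0.191), CENPE of 0.39 (adjusted p = 0.0865) and CENPA of 0.26 (adjusted p = 0.315). In these 3 control replicate 2 lay within or above the range of the libraries labelled knockout, and without it they were called at 0.46, 0.59 and 0.49.

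Mitotic kinesins are motors that build the spindle, move chromosomes and organize the midzone. Of the 8 genes 5 rose and 0 fell. KIF4A, a chromokinesin that condenses chromosomes and shortens midzone microtubules, had the highest log2 fold change of the 45 genes with all 6 libraries. It measured 20.4, 13.4 and 16.1 CPM in controls 1, 2 and 3, against 31.2, 34.8 and 29.8 CPM where labelled knockout (log2 fold change 0.94, SE 0.14, adjusted p = 0.00228). KIF4A lies on chromosome X from 70290090 to 70420832, plus strand, and was the only 1 of the 45 genes for which control replicate 2 was the lowest control, at 73.4% of the others. Leaving that library out gave a log2 fold change of 0.80 (edgeR adjusted p = 8.57e-06). In that fit FOXM1 (0.98), CCNA2, AURKB, KIF2C, KIF23 and NUSAP1 (0.81) had higher values than KIF4A.

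KIF2C (MCAK), which removes tubulin at centromeres, measured 27.4, 37.1 and 24.1 CPM against 45.6, 56.3 and 44.3 CPM (log2 fold change 0.72, SE 0.15, adjusted p = 0.0125), on chromosome 1 from 44739818 to 44767767, plus strand. KIF23 (MKLP1), part of the centralspindlin complex, measured 36.5, 48.4 and 32.7 CPM against 59.6, 67.9 and 61.0 CPM (log2 fold change 0.68, SE 0.13, adjusted p = 0.00746), on chromosome 15 from 69414246 to 69448427, plus strand. Neither gene's groups overlapped, and replicate 2 labelled knockout was the highest library. KIF14, a motor of cytokinesis, measured 28.3, 35.4 and 24.5 CPM against 37.9, 46.3 and 39.3 CPM (log2 fold change 0.48, SE 0.13, adjusted p = 0.0334). KIF11 (Eg5), which pushes the spindle poles apart, measured 23.02, 31.6 and 23.4 CPM against 35.8, 37.4 and 33.4 CPM (log2 fold change 0.45, SE 0.12, adjusted p = 0.0308). The calls of KIF14 and KIF11 held in 1 of the 6 fits with a library left out, the one without control replicate 2.

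KIF15, which can stand in for KIF11, and KIF20A (MKLP2), which brings Aurora B to the midzone, were not called (log2 fold changes 0.41 and 0.32, adjusted p = 0.148 and 0.202). Both were called without control replicate 2, at 0.60 and 0.52. KIF18A, which dampens chromosome oscillation at the plate, measured 31.4, 36.7 and 31.1 CPM against 30.99, 32.9 and 32.6 CPM (log2 fold change -0.04, SE 0.082, adjusted p = 0.769). Its sign turned without control replicate 2, where it was 0.043 (adjusted p = 0.715).

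Spindle assembly around chromosomes runs through TPX2, which activates the kinase Aurora A (AURKA) and nucleates microtubules together with NUSAP1, DLGAP5 (HURP), HMMR (RHAMM) and the pole protein ASPM. Of the 6 genes 4 rose and 0 fell by the test. TPX2 measured 102, 115 and 96.9 CPM against 145, 157 and 134 CPM (log2 fold change 0.47, SE 0.079, adjusted p = 0.00406), on chromosome 20 from 31739271 to 31801805, plus strand. NUSAP1, which bundles microtubules near chromatin, measured 48.8, 62.8 and 43.6 CPM against 76.3, 89.9 and 77.9 CPM (log2 fold change 0.65, SE 0.13, adjusted p = 0.00775), on chromosome 15 from 41332694 to 41381050, plus strand. The groups were separate for both. DLGAP5, which stabilizes kinetochore fibers, measured 19.2, 26.98 and 17.4 CPM against 30.9, 34.9 and 29.3 CPM (log2 fold change 0.58, SE 0.15, adjusted p = 0.0282). ASPM measured 35.9, 43.4 and 32.2 CPM against 47.0, 55.7 and 46.7 CPM (log2 fold change 0.42, SE 0.11, adjusted p = 0.0324). DLGAP5 and ASPM also had separate groups, but kept the call in only 1 of the 6 fits with a library left out, the one without control replicate 2. AURKA, with a log2 fold change of 0.27, was not called (adjusted p = 0.13), and was called without that library at 0.42.

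HMMR ran against the other spindle genes without passing the test. It measured 18.9, 29.6 and 17.3 CPM in controls 1, 2 and 3, against 14.6, 15.5 and 13.9 CPM where labelled knockout (log2 fold change -0.58, SE 0.19, adjusted p = 0.0557), and lies on chromosome 5 from 163460203 to 163491945, plus strand. Every library labelled knockout was below every control, and control replicate 2 stood at 163% of the other controls. When that library was left out, the log2 fold change was -0.31, and the gene was called lower (edgeR adjusted p = 0.026). HMMR was called lower in 7 of the 14 alternative fits. Against TPX2, another spindle assembly gene, TPX2 reads per HMMR read were 5.37, 3.88 and 5.59 in controls 1, 2 and 3, against 9.94, 10.1 and 9.65 where labelled knockout. HMMR reads per CDK1 read were 0.518, 0.635 and 0.541 in controls 1, 2 and 3, against 0.528, 0.51 and 0.525 where labelled knockout. The groups were separate in the first ratio, which follows from the CPM of TPX2 and HMMR, separate in opposite directions. They overlapped in the second, where control replicate 2 was the highest.

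**Figure D5:**
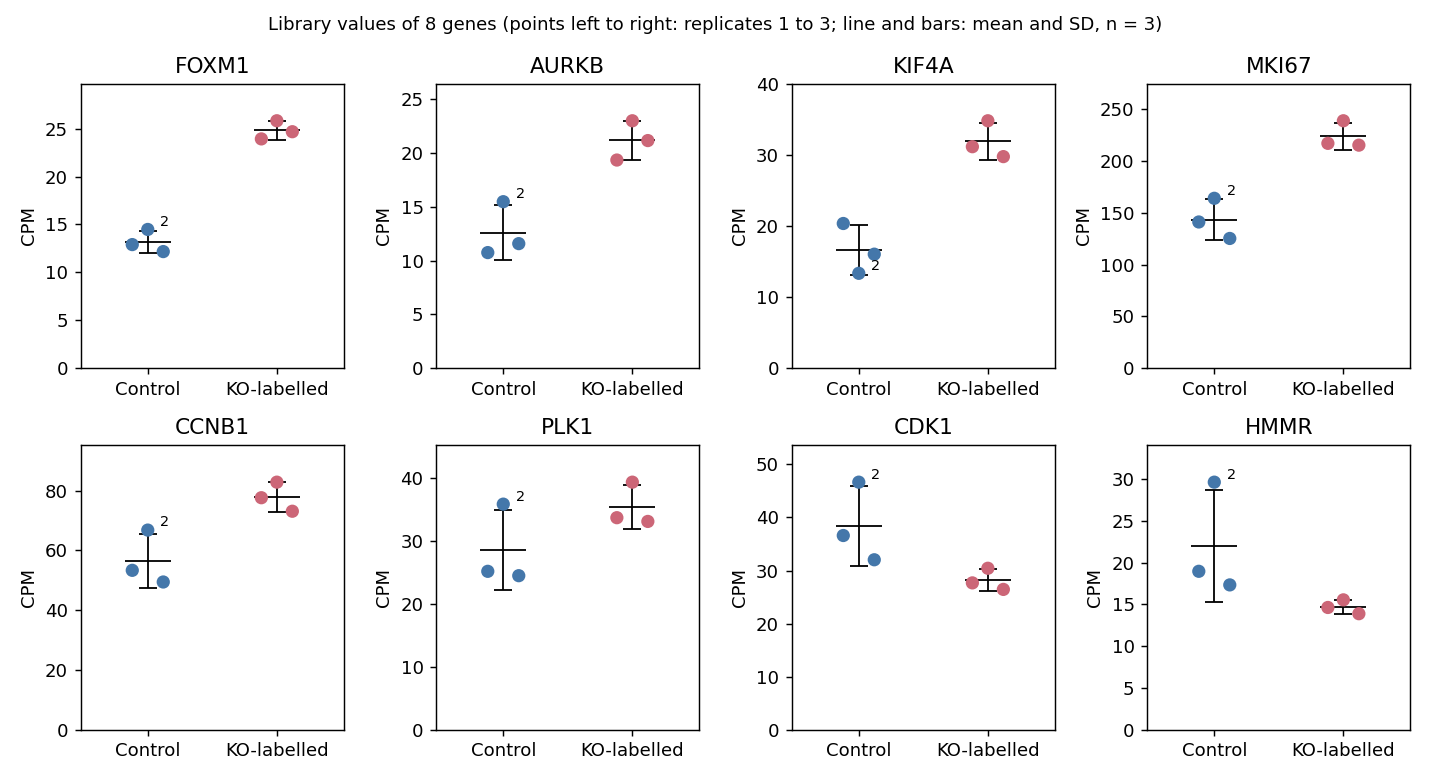
CPM (y axis, from 0) of 8 genes in each library, blue for Control and red for the libraries labelled knockout, replicates 1 to 3 from left to right, with the mean and SD (n = 3) in black and Control 2 marked 2. Control 2 is the highest control in 7 panels and the lowest for KIF4A, and the PLK1 groups overlap.

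The midzone and the contractile ring divide the cell. PRC1 crosslinks midzone microtubules, RACGAP1 and KIF23 form centralspindlin, ECT2 activates RhoA there and anillin (ANLN) scaffolds the ring. Of PRC1, RACGAP1, ECT2 and ANLN, 1 rose and 0 fell. PRC1 measured 35.9, 45.9 and 35.8 CPM against 55.8, 60.99 and 54.5 CPM (log2 fold change 0.54, SE 0.10, adjusted p = 0.007), on chromosome 15 from 90966038 to 90995629, minus strand. ANLN measured 35.9, 35.01 and 31.5 CPM against 38.8, 47.7 and 38.1 CPM (log2 fold change 0.28, SE 0.10, adjusted p = 0.0749). The groups were separate for both, and for ANLN, on chromosome 7, control replicate 2 stood at 104% of the other controls. RACGAP1 and ECT2 had log2 fold changes of 0.21 and 0.20 (adjusted p = 0.0676 and 0.162), among the smallest of the 45. Leaving out control replicate 2, the values of RACGAP1, ECT2 and ANLN were 0.27, 0.28 and 0.29, and all were called. With any other library left out none of them was called (edgeR adjusted p up to 0.196, 0.387 and 0.201).

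Topoisomerase II alpha (TOP2A) untangles sister chromatids and Ki-67 (MKI67), the usual marker of cycling cells, coats mitotic chromosomes. Both rose. MKI67 measured 141, 164 and 125 CPM in controls 1, 2 and 3, against 217, 239 and 215 CPM where labelled knockout (log2 fold change 0.64, SE 0.092, adjusted p = 0.00192), on chromosome 10 from 128096659 to 128126385, minus strand. TOP2A measured 69.6, 93.1 and 64.9 CPM against 97.99, 112 and 95.9 CPM (log2 fold change 0.43, SE 0.13, adjusted p = 0.0436). The libraries labelled knockout lay above every control for both, for TOP2A by a small margin over control replicate 2. TOP2A kept the call only in the fit without control replicate 2 among the 6 with a library left out, with adjusted p up to 0.145 in the others.

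Per length, the genes differed in abundance. With CPM divided by kilobases of exon in GENCODE release 29, on another build than the counts, CDC25B had the highest mean level in controls (59.1), followed by TPX2 (29.01), BUB3 (23.2) and CCNB1 (22.1). CDC25C had the lowest (2.18). CDK1 went from 9.78 to 7.17 on this scale while CCNB1 went from 22.1 to 30.4. In that annotation 27 of the 45 genes share no exon base with another gene, and 5 share over 10%: NUSAP1 (62.2%) and BUB1B (10.2%) with a gene on the same strand, PRC1 (58.4%) with genes on both strands, and FOXM1 (15.9%) and PLK1 with genes on the opposite strand. The strand setting of the counting is not given, and for partners on the same strand it makes no difference. Whether reads in shared bases were counted or dropped was not tested, so these counts are uncertain to that extent. A pseudogene is named for 9 genes (CCNB2, BUB1, BUB3, CDC20, UBE2C, AURKA, DLGAP5, RACGAP1 and MKI67), whose counts are uncertain to the extent that reads match both copies.

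Other mitosis genes, a list of 76 that holds further centromere, condensin, cohesin and anaphase-promoting complex genes, were counted beside them. Of the 76, all tested, 34 rose (44.7%) and 1 fell (1.32%), where 9.73% and 11.4% of all tested genes did. The median log2 fold change was 0.28. The 5 with the highest values among those that rose were CDCA5, SPC25, GTSE1, SKA1 and HJURP. Sororin (CDCA5), which protects sister cohesion, measured 15.9, 21.7 and 13.4 CPM against 31.5, 37.2 and 34.1 CPM (log2 fold change 1.01, SE 0.15, adjusted p = 0.0026). SPC25, a subunit of the NDC80 complex, measured 3.46, 5.66 and 2.91 CPM against 7.31, 9.15 and 6.41 CPM (log2 fold change 0.91, SE 0.24, adjusted p = 0.028). Both were separate between the groups, with control replicate 2 the highest control. The microtubule-associated protein GTSE1, the kinetochore protein SKA1 and the CENPA chaperone HJURP rose by 0.79, 0.78 and 0.75 on the log2 scale. SKA2, which works in 1 complex with SKA1, fell: it measured 31.7, 36.3 and 28.5 CPM against 18.4, 22.6 and 24.3 CPM (log2 fold change -0.56, SE 0.12, adjusted p = 0.0129). Without control replicate 2, 50 were higher and 1 lower, where 13.5% and 14.1% of all tested genes were. With any other library left out, 16 to 20 were higher, where 4.55% to 7.03% of all tested genes were. In those fits 0 or 1 were lower, where 6.17% to 8.41% of all tested genes were. The count was 0 only without replicate 1 labelled knockout, where SKA2 was not called.

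Regulators of the programme were counted from a list of 32, with E2F, DREAM and MuvB subunits, pocket proteins, CDK inhibitors and NF-Y. Of these 6 rose (18.8%) and 0 fell, where 9.73% and 11.4% of all tested genes did. The median log2 fold change was 0.06. B-MYB (MYBL2), the partner of the MuvB core at CHR genes, measured 18.1, 19.9 and 13.8 CPM against 29.5, 31.5 and 32.6 CPM (log2 fold change 0.85, SE 0.12, adjusted p = 0.0019), with separate groups. The CDK subunit CKS2, the phosphatase CDKN3 and cyclin F (CCNF) rose by 0.61, 0.61 and 0.50, and the NF-Y subunit NFYA by 0.46, on the log2 scale. CKS2, on chromosome 9, measured 34.4, 28.7 and 34.1 CPM against 48.2, 50.1 and 50.5 CPM. NFYA, on chromosome 6, measured 64.9, 47.4 and 66.8 CPM against 86.3, 72.98 and 86.98 CPM. Control replicate 2 was the lowest library for both. Without control replicate 2, 12 regulators were higher and 2 lower, where 13.5% and 14.1% of all tested genes were. With any other library left out 2 or 3 of the 32 were higher, where 4.55% to 7.03% of all tested genes were. In those fits 0 or 1 of the regulators were lower, where 6.17% to 8.41% of all tested genes were. Counts this small leave the comparison with all tested genes uncertain. A CHR match was found for 61.5% of the 65 other mitosis genes and 40.7% of the 27 regulators with a start in the table.

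Reads of each of the 45 genes were also counted per 1000 reads of the 76 other mitosis genes in the same library. This scale was chosen after the values were seen. The 76 genes rose themselves (34 called higher, 1 lower), which lowers a gene of steady CPM on this scale. The shares of all tested genes are therefore not a neutral measure here. RAD21, among the genes of the list with the most reads, measured 306, 244 and 295 CPM in controls 1, 2 and 3. SMC1A measured 122, 66.9 and 115 CPM, so control replicate 2 was low for both. On this scale 12 of the 45 genes had every library labelled knockout above every control, where 4.33% of all tested genes did. A further 4 had every one below, where 47.3% of all tested genes did. The other 29 overlapped, BUB1, CDC20, PLK1 and CCNB1 among them. The 12 were FOXM1, AURKB, INCENP, CDCA8, NDC80, KIF2C, KIF4A, KIF23, TPX2, NUSAP1, PRC1 and MKI67. FOXM1 numbered 4.38, 4.68 and 4.28 in controls and 6.99, 7.16 and 7.204 where labelled knockout, and control replicate 2 came to 108% of the other controls. The 4 below were CDK1, HMMR, BUB3 and KIF18A. CDK1 numbered 12.4, 15.1 and 11.3 in controls and 8.09, 8.44 and 7.72 where labelled knockout. HMMR numbered 6.44, 9.57 and 6.096 in controls and 4.27, 4.31 and 4.05 where labelled knockout. BUB3 and KIF18A were below on this scale while their CPM overlapped.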

How the data were processed

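Each library came with a deposited list of whole-number counts of reads by symbol. The submitters' processing notes name TopHat2 2.0.11, HTSeq and the builds hg19 and GRCh37. The annotation, the HTSeq version and how strand was handled were not given in the sources used here. The 5 summary lines, between 31.7% and 32.37% of listed reads, were left out. Counts were tested with edgeR 4.0.16 (R 4.3.3): quasi-likelihood test, TMM, filterByExpr with a minimum count of 10 and total of 15, Benjamini-Hochberg adjustment over 16369 genes, called at an adjusted p under 0.05. Members and lists were chosen with earlier results of these data known, and no p was adjusted over a list alone. The rule for named genes gave library values to called members, members that fell and those on chromosomes 6 to 9 and X, and named the 5 called genes with the largest fold changes in each other list. The fit was repeated with 1 library left out at a time, with other scalings, filters and thresholds, with a replicate block, without chromosomes 6 to 9, X, Y and the mitochondrial genome, and with limma-voom (limma 3.58.1) and DESeq2 1.42.0. Its script was first tested on simulated data. No replicate pair agreed within sampling noise (chi-square per degree of freedom from 2.19 to 19.7). A floor of 3 reads is 0.176 to 0.223 CPM, and covers counting error only. Starts and promoter bases came from RefSeq, positions from GENCODE release 29 by symbol.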

Additional observations from a re-analysis of the deposited data

How the results depend on the processing

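Over the 14 alternative fits of each of the 45 genes, 506 of 630 values kept direction and side of the threshold, 76 kept direction but lost the call, 46 gained it, and 2 turned sign: BUB3 with library size alone (-0.031) and KIF18A without control replicate 2 (0.043, and -0.082 to 0.043 over the libraries left out). Neither gene was called in any fit. The counts of genes higher and lower among the 45 (24 and 1) were 15 and 2 with library size alone. There 6.02% and 14.3% of all tested genes were called. At an adjusted p under 0.01 they were 10 and 0, where 3.78% and 5.31% of all tested genes were called. The lower count was 2 with upper quartile scaling, DESeq2, no filter on low counts, the replicate block, and without chromosomes 6 to 9, X, Y and the mitochondrial genome. In those fits 12%, 9.31%, 6.58%, 11.2% and 15.4% of all tested genes were called lower, in that order. Leaving out 1 library at a time gave 11 to 41 higher and 0 to 2 lower. There 4.55% to 13.5% of all tested genes were called higher and 6.17% to 14.1% lower. The same shares of all genes stand beside the counts of the other lists below. Other mitosis genes numbered 14 higher and 0 lower at an adjusted p under 0.01, and 16 to 50 and 0 to 1 with a library left out. The regulators (6 and 0) numbered 2 higher at 0.01, and 2 to 12 higher and 0 to 2 lower with a library left out. Their lower count was 2 with library size alone and without the named chromosomes, and 1 with no filter and with the replicate block. Over all genes, 1593 were higher and 1861 lower, 986 and 2343 with library size alone (29.6% of calls higher, against 46.1%), 618 and 869 at 0.01, and 756 to 2261 and 1025 to 2361 with a library left out. The cause was not tested. With the named chromosomes left out only 42 of the 45 genes were tested. The replicate numbers do not pair the libraries by the labels. The correlation of deviations between libraries of 1 number was 0.0491, 0.145 and 0.0933, and each library correlated best with its own number, a hint from the data only. With the replicate block 32 of the 45 genes were higher and 2 lower, against 24 and 1. Of all tested genes, 9.92% were called higher and 11.2% lower with the block. Each of the 45 genes had at least 80 reads in every library, and n = 3 per group limits the precision.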
